A study of Homo sapiens with 16 samples.

Results

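The metallothionein genes described here are MT1E, MT1F, MT1G, MT1H, MT1M, MT1X and MT2A, taken by gene symbol from a table of 60669 genes in 16 RNA-seq libraries of MOLM-13 cells. MOLM-13 is an established line of human acute myeloid leukaemia. The cultures received 0.005% DMSO, the solvent control, an EZH2 inhibitor at 1 µM (EZH2i), a PRMT5 inhibitor at 1 µM (PRMT5i), or both inhibitors together (the combination), each for 4 days and in 4 replicates. The labels name neither compound, and they do not say whether replicates came from separate cultures, so p-values measure only the spread between these samples, which may be technical. The 7 genes were selected on measured values, having been proposed with their levels across these 4 treatments in view. Their own levels and differences are therefore given as a description, without p-values, while genes outside the set are tested. Threshold calls counted for the 7 genes are part of that description and support nothing further. The lists of related genes were also chosen with earlier results of these data known. Their p-values are thus not free of selection.

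Metallothioneins are small, cysteine-rich proteins that bind zinc and copper, and also cadmium, through clusters of metal and thiol groups. Their genes are switched on by zinc through the transcription factor MTF1, which binds short metal response elements in their promoters, and they also respond to oxidative stress and glucocorticoids. EZH2 is the methyltransferase of the polycomb complex PRC2, which methylates histone H3 at repressed genes, and PRMT5 places symmetric methyl groups on arginines of histones and splicing proteins.

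All 7 genes lie in one stretch of 76 kb on chromosome 16 (GRCh38, GENCODE release 29), 6 on the plus strand and 1, MT1G, on the minus strand. In order along the chromosome they are MT2A (ENSG00000125148.6, chr16:56608199-56609497), MT1E (ENSG00000169715.14, chr16:56625475-56627112), MT1M (ENSG00000205364.3, chr16:56632233-56633986) and MT1F (ENSG00000198417.6, chr16:56657694-56660698). MT1G (ENSG00000125144.13, chr16:56666731-56668065), MT1H (ENSG00000205358.3, chr16:56669814-56671129) and MT1X (ENSG00000187193.8, chr16:56682424-56684196) follow. All are annotated as protein-coding, and MT1X alone shares exon bases with another annotated gene (18.1%, with AC026461.1).

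Each gene has a coding region of 183 bases, or 61 codons before the stop, and 20 of the 61 codons (32.8%) encode cysteine. Identity between coding regions ran from 88.5% for MT1F and MT1X to 95.1% for MT1G and MT2A. The longest run of identical bases in any of the 21 pairs was shared by MT1G and MT1X, at 96 bases (bases 61 to 156 of each). Both coding regions are shown because a read lying wholly within this run fits both genes. The shared run is in capitals (GENCODE release 29 transcripts, sense strand).
MT1G: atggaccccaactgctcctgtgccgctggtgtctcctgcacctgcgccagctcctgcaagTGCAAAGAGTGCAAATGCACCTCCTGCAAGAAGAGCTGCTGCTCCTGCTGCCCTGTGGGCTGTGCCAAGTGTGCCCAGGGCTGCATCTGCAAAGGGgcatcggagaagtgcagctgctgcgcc
MT1X: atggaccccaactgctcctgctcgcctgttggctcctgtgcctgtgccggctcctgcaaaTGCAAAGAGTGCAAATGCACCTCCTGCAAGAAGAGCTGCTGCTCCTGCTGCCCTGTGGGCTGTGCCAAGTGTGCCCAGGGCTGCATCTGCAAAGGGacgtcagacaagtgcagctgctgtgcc

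The deposited counts show that reads were divided between MT1G and MT1X. Whether those reads lay in the shared run was not examined. RSEM, which divides a read that fits several genes between them, gave MT1G and MT1X values that were not whole in 13 of 16 libraries each (tolerance 0.005 of a count). Their sum was not whole in 1 library, and MT1H, MT1M and MT2A were whole in all 16. The ratio of MT1G to MT1X counts ran from 0.635 to 1.08 in DMSO, 1.05 to 1.11 in EZH2i, 0.949 to 1.06 in PRMT5i and 1.09 to 1.32 in the combination. The split between MT1G and MT1X is therefore uncertain, and the sum of the 7 genes is reported as well as the single genes.

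RefSeq promoters (GRCh38.p14, plus strand) were matched for 3 of the 7 genes, MT2A, MT1H and MT1X. MT1E, MT1F, MT1G and MT1M had no match. The 250 bases before each RefSeq start are shown because these genes were higher in the same treatments. Matches to TGCACNC or TGCGCNC on either strand, the core letters of the metal response element, are in capitals. The windows are chr16:56608334-56608583 for MT2A, chr16:56669564-56669813 for MT1H and chr16:56682220-56682469 for MT1X. RefSeq and GENCODE starts differ for MT2A and MT1X. The MT2A window lies within the GENCODE span of the gene given above, and the MT1X window runs past the start of its span.
MT2A: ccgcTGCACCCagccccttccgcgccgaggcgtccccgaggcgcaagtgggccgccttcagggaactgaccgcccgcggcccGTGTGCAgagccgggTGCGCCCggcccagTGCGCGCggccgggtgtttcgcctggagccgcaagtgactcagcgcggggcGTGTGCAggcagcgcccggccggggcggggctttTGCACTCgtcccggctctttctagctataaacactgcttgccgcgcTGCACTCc
MT1H: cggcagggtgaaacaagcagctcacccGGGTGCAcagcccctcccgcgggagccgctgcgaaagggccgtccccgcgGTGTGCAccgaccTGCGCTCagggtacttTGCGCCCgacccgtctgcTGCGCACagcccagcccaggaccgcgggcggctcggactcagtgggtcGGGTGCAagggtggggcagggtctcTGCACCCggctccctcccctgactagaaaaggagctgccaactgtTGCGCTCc
MT1X: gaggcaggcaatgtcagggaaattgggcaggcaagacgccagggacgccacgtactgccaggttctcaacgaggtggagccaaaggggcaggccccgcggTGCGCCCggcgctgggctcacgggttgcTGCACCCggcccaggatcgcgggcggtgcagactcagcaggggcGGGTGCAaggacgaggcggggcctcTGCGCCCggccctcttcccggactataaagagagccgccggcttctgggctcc

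MT2A held 7 matches (5 of TGCACNC and 2 of TGCGCNC), MT1H 8 (4 and 4) and MT1X 4 (2 and 2), with no overlap between matches. Among 35116 RefSeq promoter windows of the same length, 24.8% held at least 1 match to either motif, 9.87% held TGCACNC and 16.8% held TGCGCNC. At least 4 matches were found in 0.37% of windows, at least 7 in 0.0313% and at least 8 in 0.0171%. The letters TATAA stood 30 bases before the start in MT1X and 29 bases before it in MT2A. These matches are a description of letters, and binding was not measured.

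The libraries held 31.1 M to 52.9 M counts, and 16555 genes, all 7 metallothioneins among them, passed the filter on low counts. Levels are given as CPM, counts scaled to library depth, after a TMM correction (trimmed mean of M values) for differences in library make-up. The labelled myeloid type was checked against its markers: 13 of 13 were detected, with summed levels of 2147 to 2918 CPM in DMSO, 2013 to 2198 in EZH2i, 3217 to 3535 in PRMT5i and 2773 to 2965 in the combination. In PRMT5i against DMSO, 7 of these 13 passed the test upwards and 1 downwards (17.1% and 18.3% of all genes). The part of that shift in the metallothionein levels was not tested. Erythroid markers summed to at most 0.342 CPM and B cell markers to at most 2.01 CPM in any library, and T and NK cell markers to 124 to 269 CPM. Detection alone does not mark a cell type, since all 7 B cell markers also had counts. Epithelial and fibroblast markers summed to 12.7 to 17.6 CPM in DMSO, 19.5 to 31.7 in EZH2i, 20.2 to 22.01 in PRMT5i and 26.0 to 28.7 in the combination. Of these 10 markers, CDH1 alone was at 0 in all libraries. Of 5 tested, 5 rose in EZH2i (4.11% of all genes), 2 in PRMT5i (17.1%) and 4 in the combination (17.6%) against DMSO. Their part in the metallothionein levels was not tested. DMSO replicate 1 stood apart with 1.70% mitochondrial counts, against 0.213% to 0.792% in the other 15 libraries, and EZH2i replicate 4 had the lowest metallothionein share (0.00379% of counts).

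Together the 7 genes were about 1.9 times as abundant after PRMT5 inhibition as in DMSO and about 2.4 times as abundant after the combination, while the EZH2 inhibitor alone gave levels that overlapped DMSO. The sum stood at 78.0, 73.7, 64.5 and 69.4 CPM in DMSO replicates 1 to 4 (71.4 ± 5.77, SD, n = 4). It was 72.3, 74.1, 57.0 and 36.9 CPM in EZH2i (60.1 ± 17.2), where replicate 4 was the lowest of all 16 libraries. PRMT5i libraries held 127, 129, 141 and 141 CPM (135 ± 7.66), and combination libraries held 165, 152, 189 and 186 CPM (173 ± 17.7). Every PRMT5i library lay above every DMSO and EZH2i library, and every combination library lay above every PRMT5i library. In these bulk samples a change in the kind of cell and a change in RNA per cell cannot be told apart.

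On the log2 scale the sum was higher by 0.91 (SE 0.16) in PRMT5i against DMSO, a ratio of 1.88. In the combination it was higher by 1.27 (SE 0.16) against DMSO, a ratio of 2.42, and by 0.36 (SE 0.16) against PRMT5i, a ratio of 1.28. Against EZH2i it was higher by 1.16 (SE 0.16) in PRMT5i and by 1.52 (SE 0.16) in the combination. EZH2i against DMSO gave -0.25 (SE 0.16), which moved to -0.08 without EZH2i replicate 4. The interaction, the part of the combination not given by adding both single effects on the log2 scale, was 0.61 (SE 0.22).

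**Figure D1:**
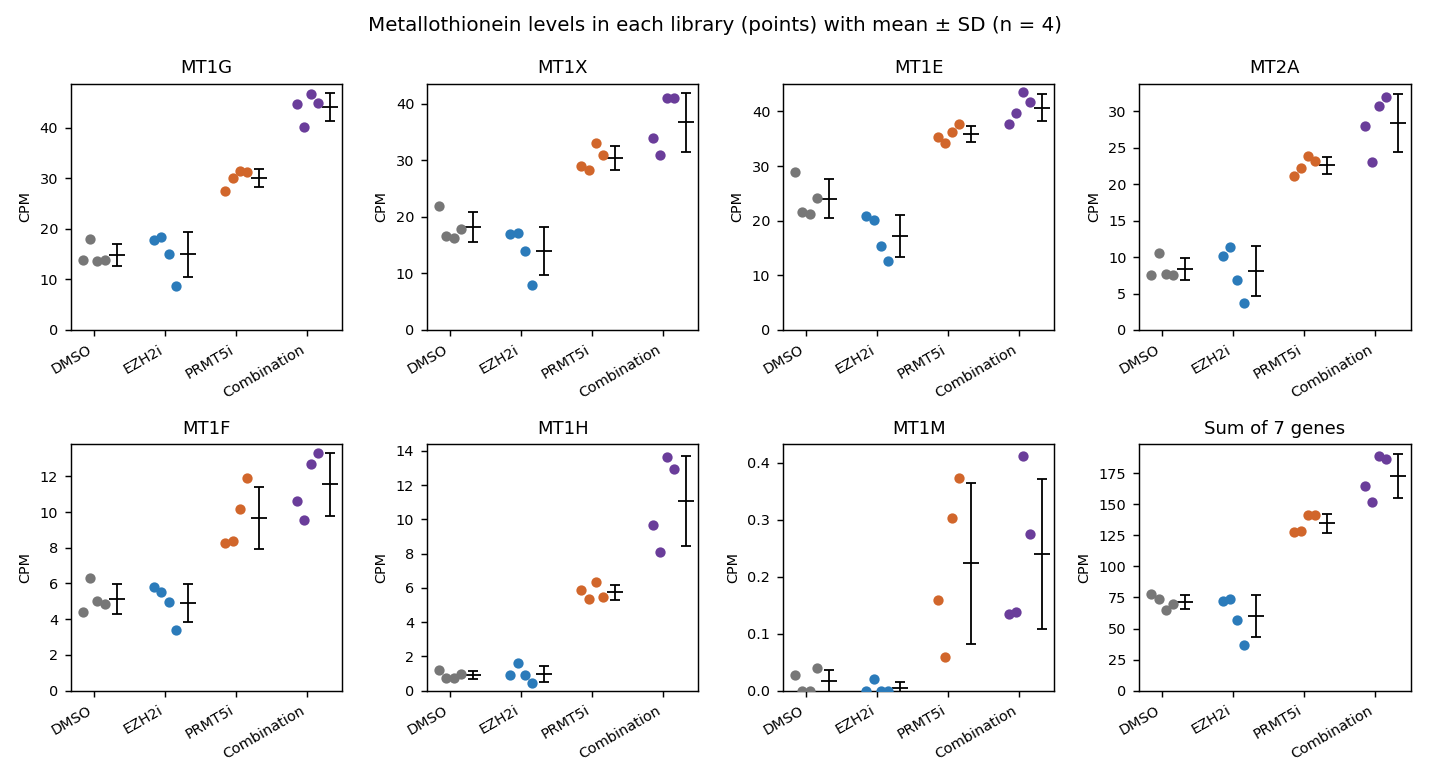
Levels of each metallothionein gene and of the 7 summed, in CPM from 0, with 1 point per library, in replicate order, and the mean ± SD (n = 4) beside them. In the panel of the sum, PRMT5i libraries sit between 127 and 141 CPM and combination libraries between 152 and 189 CPM, above DMSO and EZH2i libraries at 36.9 to 78.0 CPM.

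MT2A is the widely expressed metallothionein that most tissues use as their main form. Its level was 7.51, 10.5, 7.73 and 7.56 CPM in DMSO, and 10.2, 11.4, 6.92 and 3.70 CPM in EZH2i. It was 21.2, 22.2, 23.8 and 23.2 CPM in PRMT5i, and 28.0, 23.0, 30.7 and 31.9 CPM in the combination. DMSO and EZH2i overlapped, PRMT5i libraries were all above both, and PRMT5i and the combination overlapped. The log2 difference from DMSO was 1.44 (SE 0.23) in PRMT5i and 1.77 (SE 0.24) in the combination.

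MT1H, a metallothionein scarce in untreated MOLM-13 cells, had the largest differences from DMSO in PRMT5i and in the combination among the 6 genes with ample counts. It stood at 1.22, 0.717, 0.713 and 0.967 CPM in DMSO and at 0.904, 1.63, 0.891 and 0.459 CPM in EZH2i. PRMT5i libraries held 5.86, 5.35, 6.32 and 5.44 CPM, and combination libraries held 9.69, 8.08, 13.6 and 12.9 CPM. The combination did not overlap PRMT5i. MT1H was higher than in DMSO by 2.66 (SE 0.27) in PRMT5i and by 3.61 (SE 0.28) in the combination on the log2 scale, and higher in the combination than in PRMT5i by 0.95 (SE 0.24).

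MT1G and MT1X share reads, so their separate values are less certain than their sum. MT1G was 13.9, 18.0, 13.5 and 13.9 CPM in DMSO, 17.7, 18.4, 14.9 and 8.76 CPM in EZH2i, 27.6, 30.1, 31.4 and 31.3 CPM in PRMT5i, and 44.6, 40.2, 46.7 and 44.9 CPM in the combination. MT1X was 21.9, 16.6, 16.3 and 17.9 CPM in DMSO, 16.9, 17.1, 13.9 and 7.87 CPM in EZH2i, 28.96, 28.3, 33.1 and 30.97 CPM in PRMT5i, and 33.8, 30.8, 41.0 and 41.0 CPM in the combination. For both genes DMSO and EZH2i overlapped and PRMT5i was above both. The combination was above PRMT5i without overlap for MT1G, whereas for MT1X the 2 groups overlapped. MT1G was higher than in DMSO by 1.02 (SE 0.17) in PRMT5i and 1.57 (SE 0.17) in the combination, and MT1X by 0.74 (SE 0.18) and 1.01 (SE 0.18), on the log2 scale.

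MT1E contributed the most counts in DMSO and had the smallest log2 differences from DMSO in PRMT5i and in the combination. It stood at 28.999, 21.6, 21.2 and 24.2 CPM in DMSO and at 20.8, 20.1, 15.4 and 12.7 CPM in EZH2i, where all 4 libraries were below all DMSO libraries. PRMT5i gave 35.3, 34.2, 36.2 and 37.8 CPM, and the combination 37.7, 39.8, 43.6 and 41.7 CPM. The PRMT5i and combination groups met at 37.7 to 37.8 CPM. The log2 difference from DMSO was -0.48 (SE 0.14) in EZH2i, 0.58 (SE 0.14) in PRMT5i and 0.76 (SE 0.14) in the combination.

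MT1F was the scarcest of the genes that kept a few CPM in every group. It was 4.38, 6.33, 5.04 and 4.85 CPM in DMSO and 5.78, 5.52, 4.98 and 3.42 CPM in EZH2i. In PRMT5i it was 8.26, 8.39, 10.1 and 11.9 CPM, and in the combination 10.6, 9.56, 12.7 and 13.3 CPM. DMSO and EZH2i overlapped, as did PRMT5i and the combination, and the latter pair lay above the former. The log2 difference from DMSO was 0.91 (SE 0.17) in PRMT5i and 1.17 (SE 0.17) in the combination.

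MT1M was close to the limit of counting. Its counts were 1, 0, 0 and 2 in DMSO, 0, 1, 0 and 0 in EZH2i, 8, 3, 13 and 15 in PRMT5i, and 7, 6, 15 and 10 in the combination. No DMSO or EZH2i library reached the 0.242 CPM that the filter asks for, and 2 libraries each of PRMT5i and the combination did, so MT1M entered the fit only through the groups where it was high. The depth-scaled ratio of pooled counts was 11.5 for PRMT5i against DMSO (39 against 3 counts, 95% exact interval 3.67 to 58.3) and 12.3 for the combination against DMSO (38 against 3, 3.92 to 62.5). These intervals cover counting error only.

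Across the set, 7 of 7 genes passed an adjusted p of 0.05 upwards in PRMT5i against DMSO, where 17.1% of all tested genes did (18.3% downwards; edgeR quasi-likelihood test, Benjamini-Hochberg adjustment over 16555 genes). The groups did not overlap for any of the 7, as for 16.6% of all genes. The median log2 difference was 1.02 over the 7 genes, MT1M included, and -0.00 over all genes tested. Because the genes were chosen with such results known, and MT1M had to differ to be tested, these counts support nothing further. The same 7 passed upwards in the combination against DMSO (17.6% of all genes), in the combination against EZH2i (13.4%) and in PRMT5i against EZH2i (16.9%). PRMT5i and the combination share the DMSO libraries, so those 2 comparisons are not independent.

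**Figure D2:**
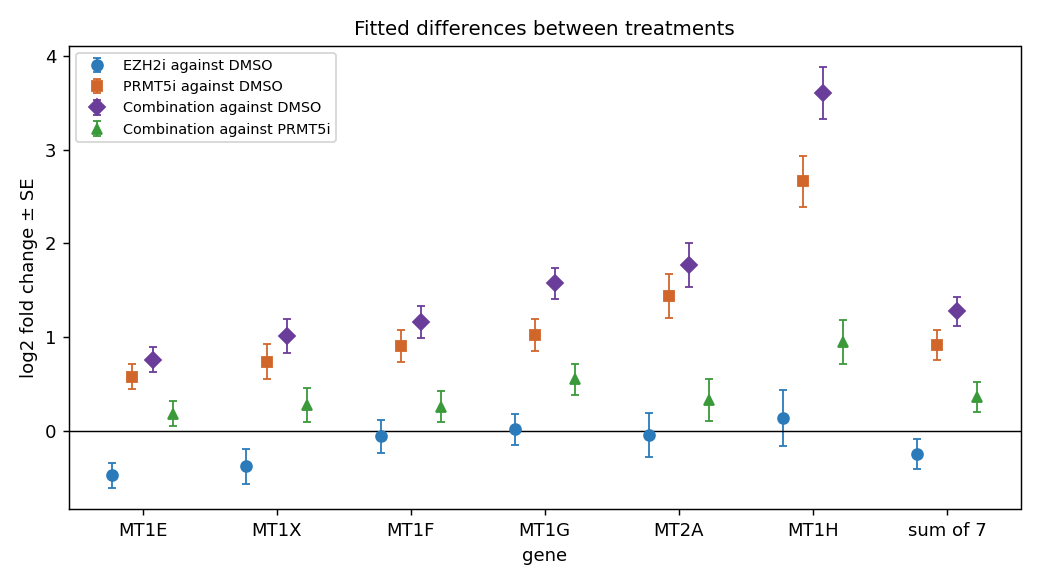
Fitted log2 fold changes (y axis, ± SE) of 6 metallothionein genes and of the sum of 7 (x axis) in 4 comparisons; MT1M is left out for its low counts. Values for PRMT5i against DMSO run from 0.58 (MT1E) to 2.66 (MT1H), and those for EZH2i against DMSO from -0.48 (MT1E) to 0.14 (MT1H).

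EZH2 inhibition alone gave small differences in this family. MT1E passed the threshold downwards, 1 of 7 genes where 3.49% of all genes did so (4.11% upwards), and MT1E was also the only gene whose groups did not overlap (5.10% of all genes lay below in that way). Its call held in 3 of 16 fits that left out 1 library, and its log2 difference was -0.25 without DMSO replicate 1 and EZH2i replicate 4. As MT1E was chosen with these levels in view, its call is a description only. MT1X gave -0.38 (SE 0.18), MT1F -0.06 (SE 0.17), MT2A -0.04 (SE 0.24), MT1G 0.02 (SE 0.17) and MT1H 0.14 (SE 0.30) on the log2 scale, none past the threshold. MT1M had 1 count in EZH2i and 3 in DMSO, and no ratio is given. The sum of the 7 genes gave -0.25 (SE 0.16).

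When the EZH2 inhibitor was added to PRMT5 inhibition, all 7 fitted differences were above 0, where the median over all genes tested was -0.00. The share of all genes above 0 was not counted. The 7 genes correlate over the same libraries, so their signs are not independent. For MT1M, with 38 against 39 counts, the ratio was 1.07 (95% exact interval 0.666 to 1.72, counting error only). MT1H alone passed the threshold, upwards, where 2.91% of all genes did, and its call held in 9 of 16 fits that left out 1 library. Since MT1H was chosen with these levels in view, neither the call nor its persistence is support for a difference. MT1H and MT1G did not overlap between the 2 groups, as for 10.2% of all genes. MT1G was higher by 0.55 (SE 0.16), MT2A by 0.33 (SE 0.23), MT1X by 0.27 (SE 0.18), MT1F by 0.26 (SE 0.17) and MT1E by 0.18 (SE 0.13) on the log2 scale. The sum was higher by 0.36 (SE 0.16).

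The fitted interaction was above 0 for all 7 genes, where the median over all genes tested was 0.01. These signs are not independent either, since the genes correlate over the same libraries. It was 0.66 (SE 0.19) for MT1E, 0.65 (SE 0.26) for MT1X and 0.81 (SE 0.38) for MT1H. MT1G gave 0.53 (SE 0.24), MT2A 0.37 (SE 0.33) and MT1F 0.31 (SE 0.24). For MT1M, with its low counts, the value was 1.30 with an SE of 1.52. The interaction passed the threshold for 0 of 7 genes with edgeR, DESeq2 and limma voom, where 0.290% of all genes passed with edgeR. At an unadjusted p under 0.05 the count with edgeR was 4 of 7, namely MT1E, MT1G, MT1H and MT1X, where 8.99% of all genes passed. Because the genes were chosen with their levels in these treatments in view, this count is a description and supports no interaction. The sum had an interaction of 0.61 (SE 0.22).

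The make-up of the family's counts differed between treatments. MT1H made up 1.26% ± 0.27 of the family's counts in DMSO, 1.56% ± 0.45 in EZH2i, 4.27% ± 0.33 in PRMT5i and 6.35% ± 0.89 in the combination (SD, n = 4 each). MT2A took 11.7% ± 1.98, 12.9% ± 2.32, 16.8% ± 0.33 and 16.4% ± 0.91 in the same order. MT1E went from 33.6% ± 3.33 in DMSO to 29.3% ± 3.47 in EZH2i, 26.7% ± 0.86 in PRMT5i and 23.7% ± 1.73 in the combination. MT1H and MT2A shares in PRMT5i lay above all DMSO shares, and MT1E shares below all of them. MT1G took 20.8%, 24.8%, 22.4% and 25.6%, and MT1X 25.4%, 23.0%, 22.5% and 21.2%, in the same order of treatments.

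**Figure D3:**
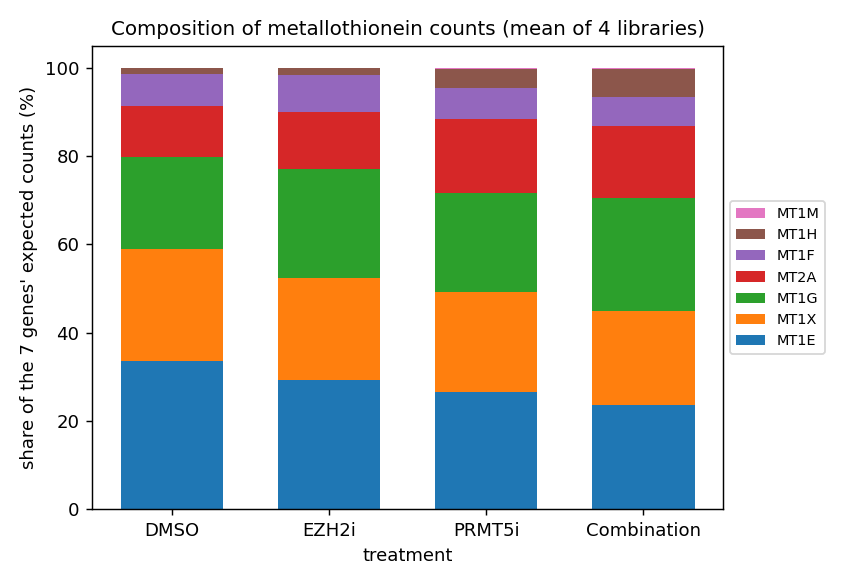
Mean share of each gene in the family's expected counts (y axis, %, stacked from 0 to 100, 4 libraries per treatment on the x axis). The MT1H band widens from 1.26% in DMSO to 6.35% in the combination, and the MT1E band narrows from 33.6% to 23.7%; the SDs are given in the text.

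Per kilobase of transcript, the order in DMSO was MT1X (40.4 ± 5.78 CPM per kb), MT1G (36.5 ± 5.16), MT1E (34.1 ± 5.10), MT2A (10.6 ± 1.87), MT1F (7.46 ± 1.21), MT1H (2.28 ± 0.61) and MT1M (0.0203 ± 0.0241). The first 3 lay within each other's spread. In the combination MT1G came first (109 ± 6.74 CPM per kb), then MT1X (81.5 ± 11.4), MT1E (57.8 ± 3.58), MT2A (36.1 ± 5.04), MT1H (27.9 ± 6.65) and MT1F (16.7 ± 2.53). MT1H and MT1F thus exchanged places. The order depends on the length used, since over all annotated exon bases MT1E came first in DMSO, at 22.8 CPM per kb, and MT1X stood at 10.2 CPM per kb, below MT1G at 19.8 CPM per kb.

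Over the 16 libraries, log2 levels of the 6 genes other than MT1M correlated in pairs at Pearson r of 0.889 to 0.984. Deviations from the group means, which leave out the treatment differences, correlated at 0.471 to 0.974, the highest for MT1G with MT2A. These values are descriptive, since the points share libraries and, for MT1G and MT1X, reads. All 6 genes were at their lowest in EZH2i replicate 4, and how far the correlations rest on that library was not tested.

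Most other metallothionein genes were at or near 0. Of 14 further symbols, 13 are in the table and 6 of these had 0 counts in all libraries. MT1A, MT3, MT1JP, MT1P3, MT1XP1 and MT2P1 had at most 3 counts in any library. MT1L, a transcribed pseudogene (ENSG00000260549.1, chr16:56617476-56618818) between MT2A and MT1E, was the only one that passed the filter. It stood at 0.194, 0.0624, 0.0891 and 0.0592 CPM in DMSO, 0.274, 0.181, 0.157 and 0.0287 CPM in EZH2i, 0.62, 0.37, 0.397 and 0.597 CPM in PRMT5i, and 0.578, 0.785, 0.714 and 1.13 CPM in the combination. All 4 PRMT5i and all 4 combination libraries reached the 0.242 CPM of the filter, against 0 DMSO libraries and 1 EZH2i library, so MT1L, like MT1M, was kept through the groups where it was high, and no p is given for it. The depth-scaled ratio of pooled counts was 5.05 for PRMT5i against DMSO (91 against 16 counts, 95% exact interval 2.95 to 9.20, counting error only). For the combination against DMSO it was 7.98 (131 against 16 counts, 4.73 to 14.4). EZH2i overlapped DMSO, and PRMT5i and combination libraries lay above all DMSO and EZH2i libraries. MT1L counts were whole in all 16 libraries.

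MTF1, the zinc-sensing activator of the family, was measured at 15.2, 26.2, 18.6 and 19.9 CPM in DMSO, 22.4, 17.0, 21.5 and 21.7 in EZH2i, 20.3, 22.1, 28.3 and 26.2 in PRMT5i, and 20.4, 26.4, 24.3 and 23.5 in the combination. All 4 groups overlapped. Its log2 difference in PRMT5i against DMSO was 0.28 (SE 0.15, edgeR adjusted p = 0.167), and without DMSO replicate 2 it was 0.43 (adjusted p = 0.0181).

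SLC30A1, the plasma membrane zinc exporter and a classic MTF1 target, held 65.1, 30.5, 57.5 and 54.7 CPM in DMSO and 27.9, 53.9, 38.6 and 62.5 in EZH2i. It held 75.0, 75.0, 75.5 and 81.7 CPM in PRMT5i and 81.5, 88.3, 74.5 and 81.3 in the combination. PRMT5i and combination libraries were all above the DMSO and EZH2i libraries. SLC30A1 rose by 0.65 (SE 0.22, edgeR adjusted p = 0.0282) in the combination against DMSO, whereas PRMT5i against DMSO gave 0.56 (SE 0.22, adjusted p = 0.0535). The call for the combination was lost without DMSO replicate 2 (0.46, adjusted p = 0.0562) and without combination replicate 1, 2 or 4 (adjusted p = 0.0532, 0.0686 and 0.0533). PRMT5i against DMSO passed without DMSO replicate 1 (adjusted p = 0.0382), EZH2i replicate 1 (0.0239) or EZH2i replicate 4 (0.0383). It also passed with DESeq2 (adjusted p = 0.0324) and limma voom (0.0391). Against EZH2i, SLC30A1 rose by 0.75 (adjusted p = 0.0130) in PRMT5i and by 0.83 (adjusted p = 0.0088) in the combination.

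**Figure D4:**
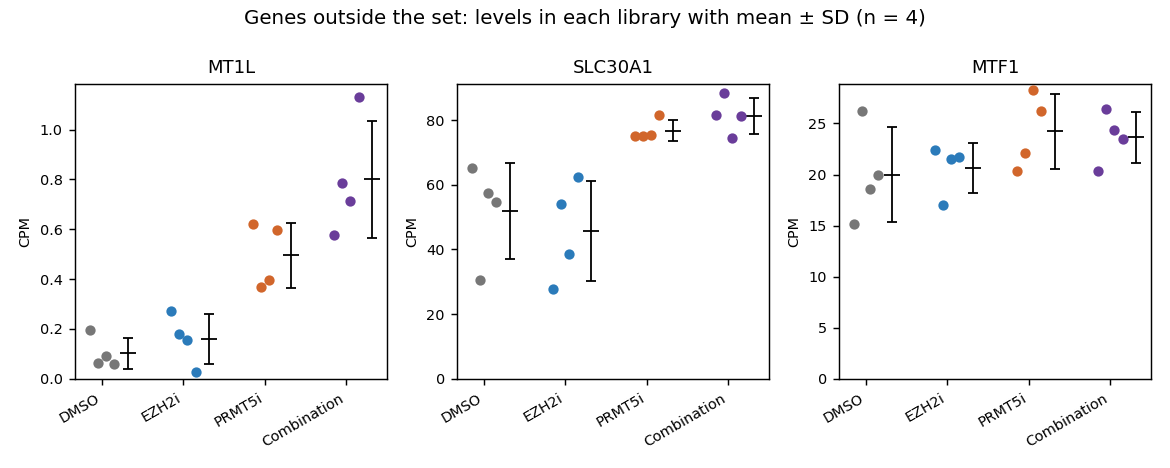
Levels of MT1L, SLC30A1 and MTF1 in CPM from 0, with 1 point per library and the mean ± SD (n = 4) beside them. SLC30A1 lies at 75.0 to 88.3 CPM in the libraries with PRMT5 inhibitor and at 27.9 to 65.1 CPM in the others, while the MTF1 groups overlap.

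A list for regulation by metal and by other stimuli held MTF1, SLC30A1, SP1, NFE2L2, KEAP1, BACH1, HIF1A and NR3C1. Of these 8, 1 rose and 1 fell in PRMT5i against DMSO, where 17.1% of all genes rose and 18.3% fell. SLC30A1 is counted again among the exporters. Changes of these and the following listed genes are log2 fold changes. KEAP1, the inhibitor of the oxidative stress factor NRF2, rose by 0.46 (edgeR adjusted p = 0.00101), and NR3C1, the glucocorticoid receptor, fell by 0.50 (adjusted p = 5.58e-04). Of 5 tested SLC30A zinc exporters 0 passed with edgeR in PRMT5i against DMSO, where 35.3% of all genes passed in either direction. With edgeR 2 had an unadjusted p under 0.05, in opposite directions, SLC30A1 higher by 0.56 and SLC30A5 lower by 0.30. With DESeq2 and with limma voom 1 exporter passed.

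Of 11 tested zinc importers of the SLC39A family, 5 fell in PRMT5i against DMSO, where 18.3% of all genes fell, among them SLC39A14 by 0.64 (edgeR adjusted p = 1.05e-04), SLC39A9 by 0.61 (3.13e-04) and SLC39A13 by 0.85 (0.00118). In EZH2i against DMSO, 2 of 11 fell, where 3.49% of all genes did, SLC39A14 by 0.52 (adjusted p = 0.00625) and SLC39A9 by 0.44 (0.0203). Of 11 copper-handling genes 3 fell with PRMT5i (18.3% of all genes), SLC31A1, the copper importer, by 0.60 (1.79e-04), COX17 by 0.45 (0.00436) and SOD1 by 0.35 (0.0199). With EZH2i, SCO2, a copper chaperone for cytochrome oxidase, fell by 0.42 (0.0226). Of 9 tested iron-handling genes 2 rose and 2 fell in PRMT5i (17.1% and 18.3% of all genes), with SLC11A1, a phagosomal metal transporter, falling by 2.68 (4.53e-07), SLC11A2 falling by 0.77 (1.05e-05) and IREB2 rising by 0.86 (4.21e-06).

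Of 14 NRF2 targets, 2 rose and 3 fell in PRMT5i against DMSO, close to the 17.1% and 18.3% of all genes. HMOX1, haem oxygenase, rose by 1.34 (edgeR adjusted p = 9.19e-06), SLC7A11, the cystine importer, fell by 3.20 (7.94e-07) and GSR, glutathione reductase, fell by 0.24 (0.00701). In EZH2i against DMSO, 4 of 14 fell, where 3.49% of all genes did, with ME1 by 0.95 (8.58e-04), TXN by 0.41 (0.0207) and NQO1 by 0.60 (0.0251). Of 12 heat shock genes 4 rose in PRMT5i, where 17.1% of all genes did, with BAG3 by 0.83 (0.00247), HSP90AA1 by 0.79 (0.00605) and HSPH1 by 0.34 (0.013), and HSP90AA1 rose by 0.77 (0.0323) in EZH2i.

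Of 10 glucocorticoid receptor targets, 6 fell in PRMT5i against DMSO, where 18.3% of all genes fell, with TSC22D3 by 1.19 (edgeR adjusted p = 5.83e-08), DDIT4 by 1.35 (9.3e-07) and SGK1 by 0.63 (9.03e-04). In EZH2i against DMSO, 2 of 10 fell and 1 rose (3.49% and 4.11% of all genes), and the list's median was 0.16 on the log2 scale. NFKBIA fell by 0.71 (2.77e-04), CRISPLD2 fell by 1.80 (0.0438) and FKBP5 rose by 1.09 (0.0248).

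Of 17 tested genes around the cluster on chromosome 16, 2 rose and 4 fell in PRMT5i against DMSO, where 17.1% of all genes rose and 18.3% fell, with NUP93 down by 0.34 (edgeR adjusted p = 7e-04), FAM192A down by 0.42 (0.00105) and RSPRY1 up by 0.35 (0.006). With EZH2i, OGFOD1 fell by 0.30 (0.0429) and ARL2BP by 0.37 (0.0471). Of 54 cytosolic ribosomal protein genes, other short and abundant messages, 1 fell in PRMT5i (RPS14, where 18.3% of all genes fell) and 33 fell in the combination against DMSO, where 18.5% of all genes fell. Of 13 mitochondrially encoded genes 6 rose in PRMT5i and 11 in the combination (17.1% and 17.6% of all genes), and their part in the metallothionein levels was not tested.

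Among 10479 genes with at least 5 CPM in a group, those most like the summed metallothioneins over the 16 libraries were CYP27A1, a sterol hydroxylase (Pearson r of log2 levels 0.959), ZBED6CL (0.935), DHRSX (0.935), CFP, the complement factor properdin (0.934), APOL2 (0.933) and LGALS3BP (0.929). CYP27A1 stood at 2.40 ± 0.37 CPM in DMSO, 2.05 ± 0.71 in EZH2i, 6.93 ± 0.63 in PRMT5i and 7.58 ± 1.07 in the combination (SD, n = 4 each). The most opposed were ZNF850 (-0.944), PLIN2, a lipid droplet protein (-0.941), HDHD2 (-0.928) and ZSCAN5A (-0.928). For deviations from the group means the closest were WDR45 (0.905), FO538757.2 (0.898), FDXR (0.885) and TRADD (0.883). All 4 genes had their largest SD in EZH2i, for FDXR 4.23 CPM against 0.414 to 0.638 CPM in the other groups. The sum was lowest in EZH2i replicate 4, and how far correlations of deviations rest on that library was not tested. MTF1 had r = 0.418 and SLC30A1 r = 0.641 with the sum over the 16 libraries, but for deviations from the group means both were below 0, at -0.126 and -0.434. The libraries of one treatment move together in these values, which are given without p.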

How the data were processed

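The values used are expected counts per gene for 16 libraries, deposited as 1 table and not scaled to depth. The submitters' processing notes name STAR 2.5.3, RSEM and the build GRCh38.p7. The RSEM version, annotation and strandedness are not given in the sources used here. RSEM splits shared reads between genes, and 12.0% of the values are not whole.

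Before fitting, values were rounded to integers. A filter on low counts (filterByExpr) was applied, and libraries were scaled by TMM and fitted with edgeR 4.0.16 (quasi-likelihood test, 4 group means, Benjamini-Hochberg adjustment over 16555 genes, threshold 0.05) in R 4.3.3. The script was tested on simulated data. The sum of the 7 genes was fitted in the same model in place of its members, with no p-value. SEs are the log2 fold change divided by the square root of F. DESeq2 1.42.0 and limma 3.58.1 were alternatives. Likeness used log2 CPM with a prior count of 2. Coordinates and coding sequences are from GENCODE release 29, promoters from RefSeq.

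The members and 17 gene lists were chosen with earlier results of these data known. Named were all 7 members, other metallothionein genes with a count, MTF1 and SLC30A1, up to 3 genes per related list in PRMT5i and in EZH2i against DMSO by smallest p, and the 6 highest, 4 lowest and 4 closest by deviation in likeness.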

Additional observations from a re-analysis of the deposited data

Results flagged for a closer look

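Single libraries far from the other 3 of their group were looked for in 44 groups of values, of which 5% would be marked by chance. MT1G was 18.0 CPM in DMSO replicate 2 and 13.5 to 13.9 CPM in the other 3. MT2A was 10.5 CPM in the same library and 7.51 to 7.73 CPM in the others. MT1M had 0.0201 CPM, from 1 count, in EZH2i replicate 2 and 0 in the others. MTF1 was 17.0 CPM in EZH2i replicate 2 and 21.5 to 22.4 CPM in the others. SLC30A1 was 81.7 CPM in PRMT5i replicate 4 and 75.0 to 75.5 CPM in the others.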

How the results depend on the processing

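No direction of a called value reversed in any alternative run. The member count for EZH2i against DMSO was 1 and became 0 with total counts only, with the replicate block, within replicates 1 and 2, with only the groups compared, and without DMSO replicate 1 and EZH2i replicate 4 (an alternative chosen after seeing the data). For the combination against PRMT5i the count of 1 became 2 with total counts only, with DESeq2 and without those 2 libraries, 3 with only the groups compared, and 0 with the replicate block and within replicates 1 and 2. Within replicates 1 and 2 the count was 3 for PRMT5i against DMSO and 4 for PRMT5i against EZH2i, with fewer libraries. Within replicates 3 and 4 it was 1 for the interaction. The summed log2 difference was 1.11 within replicates 1 and 2 and 1.99 within replicates 3 and 4 for the combination against EZH2i, and 0.81 and 1.58 for PRMT5i against EZH2i. Within replicates 3 and 4 it was -0.51 for EZH2i against DMSO and 0.92 for the interaction. The causes were not tested.

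Leaving out 1 library gave 0 to 1 members past the threshold in EZH2i against DMSO, 0 to 2 in the combination against PRMT5i, 7 in the other 4 comparisons between treatments and 0 for the interaction. Summed differences then ran from -0.37 to -0.08 for EZH2i against DMSO, 0.87 to 0.95 for PRMT5i against DMSO, 1.23 to 1.33 for the combination against DMSO, 1.35 to 1.64 for the combination against EZH2i, 0.31 to 0.42 for the combination against PRMT5i, 0.99 to 1.28 for PRMT5i against EZH2i and 0.44 to 0.73 for the interaction. Same-numbered replicates of different treatments correlated at -0.27 to 0.24 in their deviations (median 0.02). Differently numbered ones correlated at -0.36 to 0.47 (median -0.02). Of 16 libraries, 5 correlated best with a library of their own number. These values do not settle whether the numbers pair the samples. With the replicate block the sum gave 0.92 for PRMT5i and 1.28 for the combination against DMSO. Total counts moved the median of all genes by 0.13 in the combination against DMSO. Depth limits MT1M, with at most 15 counts in a library.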
